A study of Mus musculus with 12 samples.

Results

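The retinoid transport and retinoic acid genes described here are Rbp4, Stra6, Crabp1, Crabp2, Dhrs3, Aldh1a2, Cyp26a1, Rara and Rarb. They were chosen by name, as every probe whose gene label equals one of the 9 symbols, which gave 15 of the 45281 probes on the array. RNA was measured on 12 Illumina MouseWG-6 V2.0 arrays of mouse XEN cells, a stem cell line of the extraembryonic endoderm. All of the cells came from a line that carries an Afp::GFP transgene, a green fluorescent reporter driven by the alpha-fetoprotein gene Afp, and were grown in N2B27 medium. The 4 groups had 3 arrays each: BMP4-treated cells sorted as GFP positive, BMP4-treated cells sorted as GFP negative, unsorted cells given BMP4, and untreated unsorted cells. The labels give neither the dose and duration of BMP4 nor the number of clones behind the line. The labels do not say that the arrays of a group came from separate cultures, so each p measures only the spread between arrays.

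Vitamin A travels in serum as retinol bound to retinol binding protein, the product of Rbp4, and enters cells through the receptor made from Stra6. Inside the cell retinol is oxidized to retinal and then, by Aldh1a2 in the early mouse embryo, to retinoic acid, while Dhrs3 turns retinal back into retinol. Crabp1 and Crabp2 encode cytosolic carriers of retinoic acid, Cyp26a1 encodes the P450 enzyme that starts its breakdown, and Rara and Rarb encode nuclear receptors that bind DNA with an RXR partner. Visceral endoderm, the absorptive layer around the early embryo, is known as a source of retinol binding protein before the liver forms. Both Rarb and Cyp26a1 are textbook targets of retinoic acid, which acts through direct repeats of a receptor motif near their start.

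Those repeats were looked for in the RefSeq promoter windows, 250 bases before to 50 after each transcript start in build GRCm38.p6, which were at hand for 8 of the 9 members in 17 windows. The receptor motifs searched were NGGTCA and NGTTCA, in either combination, on both strands, as direct repeats with 1, 2 or 5 bases between them. Only Rarb and Cyp26a1 had a match among the 8, each with a spacer of 5. In all, 81 of 32851 windows (0.247%) held a repeat with that spacer. The windows of Rarb (chr14:16575427-16575726, minus strand) and Cyp26a1 (chr19:37697558-37697857, plus strand) are shown because these genes had the largest changes with BMP4 among the members, in opposite directions. The capitals mark the motifs. A match describes these letters and does not show that a receptor is bound there.

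Rarb: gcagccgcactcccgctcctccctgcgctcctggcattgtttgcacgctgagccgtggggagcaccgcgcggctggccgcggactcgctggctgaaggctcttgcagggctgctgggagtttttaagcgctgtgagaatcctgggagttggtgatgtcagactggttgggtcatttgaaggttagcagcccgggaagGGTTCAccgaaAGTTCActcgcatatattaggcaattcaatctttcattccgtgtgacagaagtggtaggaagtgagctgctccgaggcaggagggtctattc
Cyp26a1: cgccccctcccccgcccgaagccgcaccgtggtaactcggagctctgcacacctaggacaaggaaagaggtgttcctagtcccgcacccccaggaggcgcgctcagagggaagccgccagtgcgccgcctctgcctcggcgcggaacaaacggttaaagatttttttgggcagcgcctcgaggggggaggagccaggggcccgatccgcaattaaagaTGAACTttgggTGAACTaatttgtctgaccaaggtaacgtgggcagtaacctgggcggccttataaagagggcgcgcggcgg

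The repeat of Rarb, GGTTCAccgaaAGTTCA, ran from base -53 to base -37 before the start. That of Cyp26a1, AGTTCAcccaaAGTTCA, lay on the opposite strand from base -32 to base -16. Genes with such a window went both ways. Of 73 genes with such a window 13 were measured, and 4 were higher and 5 lower after BMP4 (69.2%), against 58% over all genes measured, with a median log2 difference of 0.04 against 0.03 for all genes. Without the members, 7 of 11 passed.

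Some facts of the whole series bear on every value below. The median signal was 22.6 to 32.4 on the 6 arrays of sorted cells and 53.4 to 60.9 on the 6 unsorted ones. The labels do not say whether both kinds were run together or had the same BMP4 dose and duration. Sorting therefore cannot be told apart from any difference in culture, in treatment or in how these arrays were run. After background correction and quantile normalization, arrays of 1 group correlated across probes with r between 0.993 and 0.996, where probes are not independent replicates. All 8 markers of XEN cells and primitive endoderm were detected on all 12 arrays. Of the markers of other cell types, none of 5 fibroblast genes was detected on any array and 4 of 5 trophoblast genes were never detected, the other being Krt7 on 2 arrays. Of 4 pluripotency genes, Pou5f1 and Nanog were never detected, Sox2 was detected on 1 array and Zfp42 on all 12. Afp, the gene behind the reporter, averaged 9.59 ± 0.17 in GFP positive and 7.36 ± 0.13 in GFP negative cells (log2, SD, n = 3 each), a difference of 2.23 ± 0.17 (SE, limma adjusted p = 9.03e-06). With 3 arrays in a group, precision is limited by their number.

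A probe counted as detected on an array at a detection p under 0.01 and was tested if detected on at least 3 arrays. Of the 15 member probes, 6 from 5 genes were tested, 1 was detected on 2 arrays, and 8 were detected on none. The 6 were both brighter probes of Rarb and 1 probe each of Rbp4, Stra6, Cyp26a1 and Rara. The level at which detection began was a normalized log2 signal of 5.66 to 5.84 on the arrays of sorted cells and 5.42 to 5.63 on those of unsorted cells. Unsorted BMP4 cells were first set against untreated cells. All 6 tested probes passed limma's test there (Benjamini-Hochberg adjusted p under 0.05 over 15448 probes), 3 higher and 3 lower. The arrays of both groups did not overlap for any of the 6. Over all probes 56.6% passed, 29.4% higher and 27.2% lower, and 59.9% did not overlap. Some members entered the test only through the group in which they were high, and the count says little about the set.

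**Figure D1:**
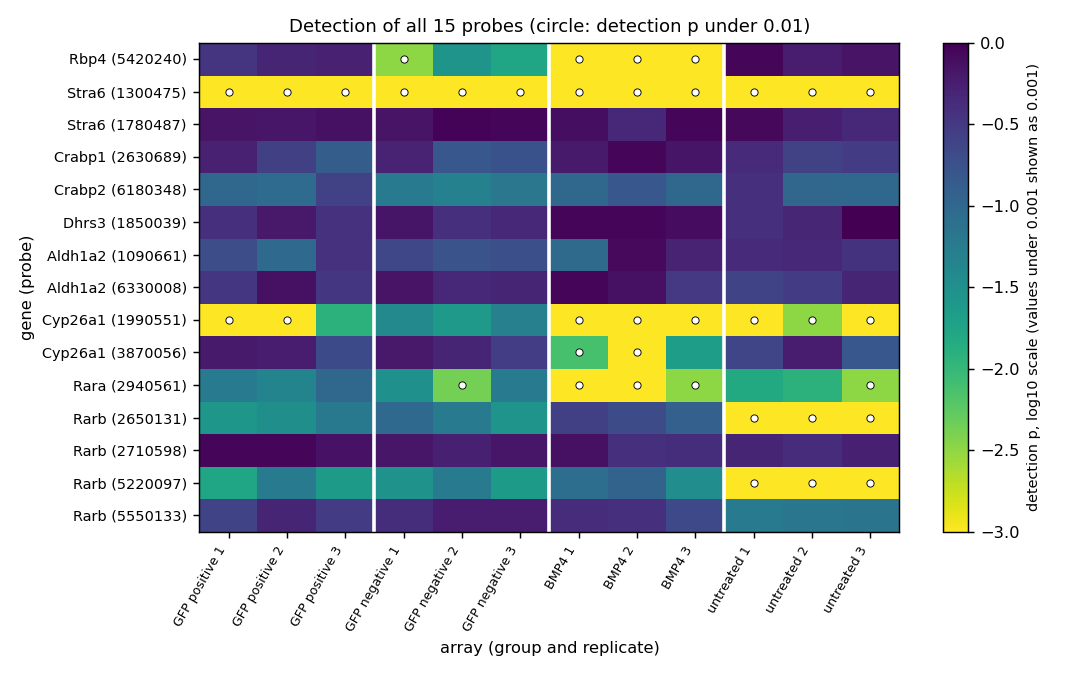
Detection p of all 15 member probes (rows) on the 12 arrays (columns), with a circle where p was under 0.01; the colour runs on a log10 scale. Stra6 probe 1300475 is detected on all 12 arrays, the 2 brighter Rarb probes only on the 3 untreated arrays, and 8 probes on none.

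Among the genes of retinol supply, Rbp4 and Stra6 moved in opposite directions with BMP4. Rbp4 (probe 5420240) had normalized log2 signals of 6.04, 6.01 and 6.34 on the BMP4 arrays, against 4.40, 4.50 and 4.46 on the untreated arrays. It was detected on all 3 BMP4 arrays and on no untreated array. The mean was 6.13 ± 0.18 after BMP4 and 4.45 ± 0.05 untreated (SD, n = 3 each). The rise was at least 1.56-fold (adjusted p = 1.27e-07), where each untreated array was taken at the lowest level of a detected probe on it. The fitted difference was 1.67 ± 0.13 (SE).

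Stra6 (probe 1300475), the receptor gene, was the member detected on every array. Its log2 signal was 9.52, 9.35 and 9.33 with BMP4, against 10.77, 10.86 and 10.80 untreated. It fell by 1.41 ± 0.08 on the log2 scale (SE, adjusted p = 4.11e-09), with means of 9.40 ± 0.10 after BMP4 and 10.81 ± 0.05 untreated (SD, n = 3 each). The groups did not overlap. The second Stra6 probe, 1780487, was not detected on any array, with detection p between 0.447 and 0.931, so the result rests on 1 probe.

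The other members between retinol and retinoic acid gave no usable signal. Both Aldh1a2 probes, the Dhrs3 probe and the probes of the 2 carriers were detected on none of the 12 arrays. Their normalized means ran from 4.41 to 5.15 over the groups, below the level at which detection began. Crabp2 came closest, with a detection p of 0.0481 on GFP negative replicate 2, and the other 4 probes stayed at 0.0908 or higher. At this signal neither a level nor a change could be read for Aldh1a2, Dhrs3, Crabp1 or Crabp2.

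The breakdown enzyme gene Cyp26a1 had the largest rise among the members. Probe 1990551 gave log2 signals of 8.28, 8.58 and 8.53 with BMP4, against 6.04, 5.77 and 5.79 untreated. The values did not overlap, and all 6 arrays detected the probe. The means of 8.46 ± 0.16 after BMP4 and 5.87 ± 0.15 untreated (SD, n = 3 each) differed by 2.60 ± 0.12 (SE), a 6.05-fold rise (adjusted p = 9.53e-10). Of all probes tested, 99.09% had a smaller absolute difference. The second Cyp26a1 probe, 3870056, was too dim for the test, detected on 2 of 3 BMP4 arrays and on no untreated array. Its BMP4 mean was at least 1.22-fold higher, and it was not part of the main test. Fitted without the detection filter, it differed by 1.12 (limma adjusted p = 0.000641), near background.

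The receptor genes went in opposite directions. Rarb probe 2650131 stood at 4.66, 4.74 and 4.86 on the BMP4 arrays, against 7.60, 7.36 and 7.48 on the untreated arrays. Rarb probe 5220097 stood at 4.96, 4.90 and 5.23 with BMP4, against 7.44, 7.55 and 7.38 untreated. Both probes were detected on all 3 untreated arrays and on none of the other 9. Rarb was therefore at least 3.74-fold lower after BMP4 by the first probe (fitted difference -2.72 ± 0.11, adjusted p = 1.52e-10) and at least 3.69-fold lower by the second (-2.43 ± 0.13, adjusted p = 5.10e-09). Rarb probe 5550133 was never detected, with detection p of 0.0588 to 0.0705 untreated. Fitted without the detection filter, it differed by -0.37 (limma adjusted p = 0.000800), near background. The remaining probe, 2710598, was at background throughout.

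Rara (probe 2940561) changed least. Its log2 signal was 6.07, 5.97 and 5.87 with BMP4, where all arrays detected it, against 5.41, 5.50 and 5.60 untreated, where 1 of 3 did. The rise of 0.47 ± 0.14 (SE, adjusted p = 0.00994) lay above 67.68% of all probes in absolute size. With a larger offset of 50 added before the log, the differences of the dim probes shrank, to 0.29 for Rara, 0.90 for Rbp4 and -1.80 for Rarb probe 2650131, and all 3 still passed.

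**Figure D2:**
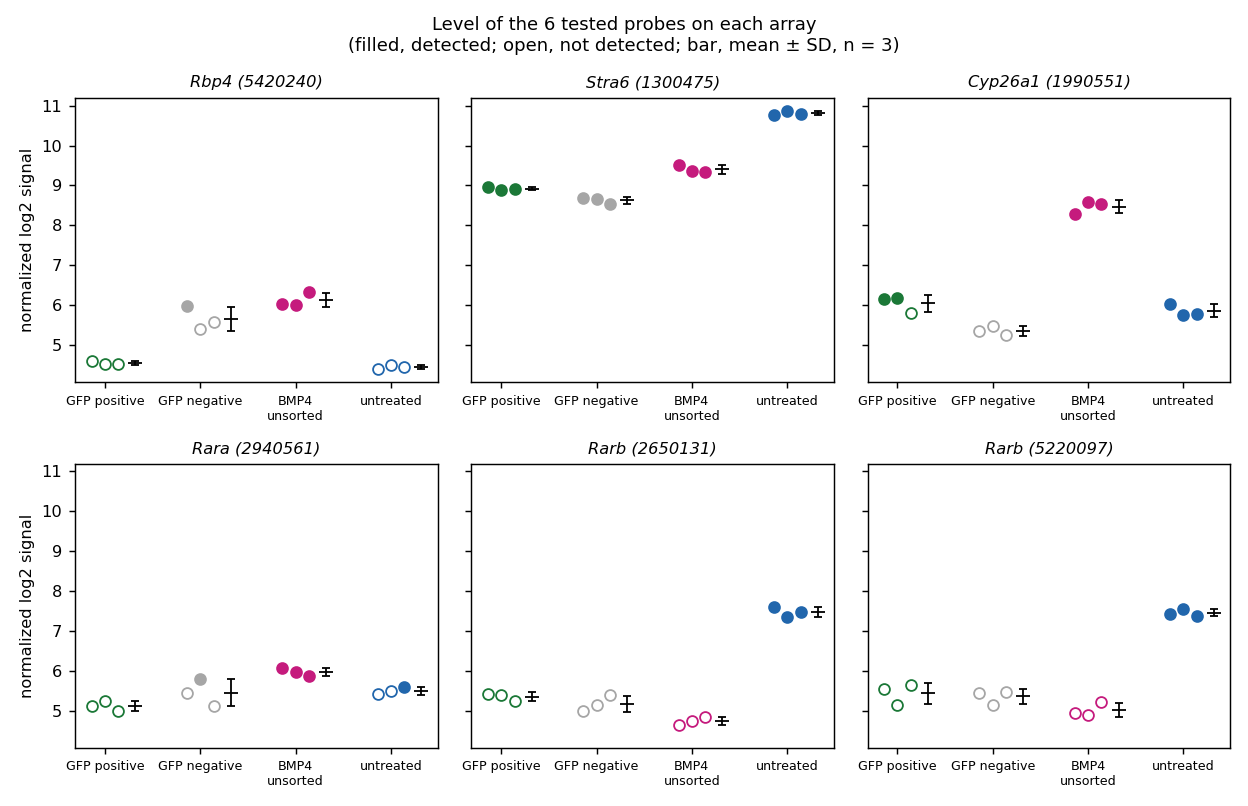
Normalized log2 signal (y axis) of the 6 tested member probes on each array by group (x axis); filled points were detected, open points were not, and the bar gives the mean ± SD of 3 arrays. Cyp26a1 is highest in unsorted BMP4 cells at 8.46, Stra6 in untreated cells at 10.81, and Rarb is detected in untreated cells only.

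The second comparison set GFP positive against GFP negative cells, both given BMP4, and so asked how the members differ with activity of the Afp reporter. Of the 6 tested probes 3 passed, 2 higher and 1 lower, where 4.41% of all probes passed, 2.44% higher and 1.97% lower. The same 3 did not overlap, as 26% of all probes did not. The members were chosen with earlier results of these data known, so these counts say little about the set. Rbp4 stood at 4.60, 4.52 and 4.52 in GFP positive cells, against 5.99, 5.41 and 5.58 in GFP negative cells. No GFP positive array and only 1 GFP negative array (replicate 1) detected it, so no fold is given. The fitted difference was -1.11 ± 0.13 (SE, adjusted p = 0.000238), and the groups did not overlap. Since 5 of the 6 arrays did not detect Rbp4 and the GFP negative mean of 5.66 ± 0.30 (SD, n = 3) was under the level at which detection began there, this difference lies near background and its size cannot be read.

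Cyp26a1 (probe 1990551) was higher in GFP positive cells. It gave 6.16, 6.19 and 5.80 in GFP positive cells, where 2 of 3 arrays detected it, against 5.35, 5.49 and 5.25 in GFP negative cells, where none did. The difference was 0.69 ± 0.12 (SE, adjusted p = 0.00577), at least 1.25-fold. Stra6 was 8.97, 8.89 and 8.90 in GFP positive and 8.68, 8.66 and 8.53 in GFP negative cells, without overlap. The difference of 0.30 ± 0.08 (SE) passed narrowly (adjusted p = 0.0452). That call depended on each array: leaving out any 1 of the 6 sorted arrays ended it (adjusted p = 0.0730 to 0.179), as did scale normalization (adjusted p = 0.294), and over all 15 alternatives its adjusted p ran from 0.0176 to 0.294.

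Neither receptor gene passed between the fractions. Rara averaged 5.12 ± 0.13 in GFP positive and 5.46 ± 0.33 in GFP negative cells (SD, n = 3 each), a difference of -0.34 ± 0.14 (SE, adjusted p = 0.215). Only GFP negative replicate 2 detected it, and the value turned on single arrays: it was -0.17 without GFP negative replicate 2 (adjusted p = 0.611) and -0.50, which passed, without GFP negative replicate 3 (adjusted p = 0.0483), the highest and lowest adjusted p among the alternatives. Rarb was not detected on any sorted array, with fitted differences of 0.18 ± 0.11 (95% interval -0.05 to 0.41) and 0.08 ± 0.13 (95% interval -0.21 to 0.37). With an offset of 50 the difference of Rbp4 was -0.56 and that of Cyp26a1 0.42, and both passed.

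The third comparison set the mean of both sorted fractions against unsorted BMP4 cells. All 3 groups had BMP4, but the labels give neither its dose nor its duration. The comparison therefore measures what goes with sorting, together with any unlabelled difference in culture, in BMP4 treatment or in how the arrays were run. In it 69.4% of all probes passed, 31.9% higher and 37.4% lower. With scale normalization 34.5% of those calls were higher, against 46% with quantile normalization. Of the members, all 6 tested probes passed, 2 higher and 4 lower, and 5 did not overlap, against 58.9% of all probes. The 2 higher were the Rarb probes, which no array of this comparison detected, so the count says little about the set. The change in Cyp26a1 was as large as that with BMP4 and in the other direction: 5.71 over the sorted arrays against 8.46 in unsorted BMP4 cells, a difference of -2.76 ± 0.11 (SE, adjusted p = 1.70e-10). The mean of the sorted arrays was thus near the untreated mean of 5.87, although the sorted cells had BMP4.

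Rbp4, detected on 1 of 6 sorted arrays, was lower in the sorted fractions by a log2 difference of -1.02 ± 0.11 (SE, adjusted p = 2.32e-06), Stra6 by one of -0.63 ± 0.07 (adjusted p = 1.75e-06) and Rara by one of -0.68 ± 0.12 (adjusted p = 0.000165). The Rarb probes also passed, at 0.52 ± 0.09 (adjusted p = 0.000216) and 0.37 ± 0.12 (adjusted p = 0.0116), but none of the 9 arrays detected either, so no fold is given. They entered the test only through the untreated arrays, and their differences here lie near background. The second of these calls did not hold once BMP4 replicate 2 was left out (adjusted p = 0.0619, the highest among the alternatives, the lowest being 0.00166). With an offset of 50 the differences of the dim probes shrank here too, to -0.58 for Rbp4, -0.40 for Rara and 0.25 and 0.20 for the Rarb probes, and all still passed. For none of the 6 probes did the unsorted BMP4 level lie between the levels of the fractions, and over all probes it did so for 9.05%.

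**Figure D3:**
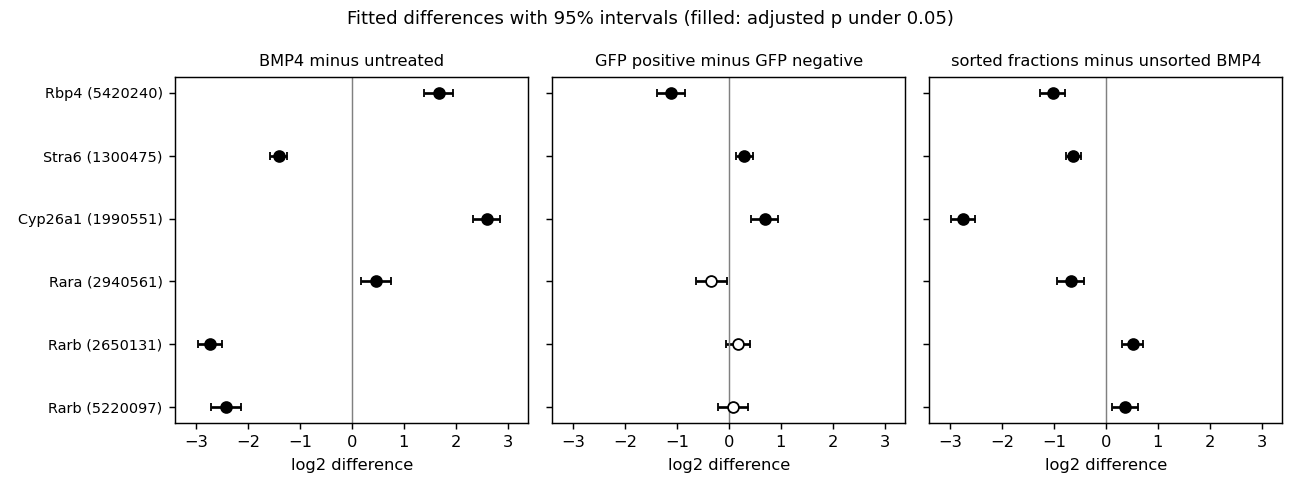
Fitted log2 differences with 95% intervals (x axis) of the 6 tested probes (y axis) in the 3 comparisons; filled points passed at an adjusted p under 0.05. Cyp26a1 is at 2.60 for BMP4 minus untreated and -2.76 for sorted minus unsorted BMP4, and 3 points of the middle panel did not pass.

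Over the 4 groups the tested members had different orders. Stra6 averaged 8.92 ± 0.04 in GFP positive, 8.63 ± 0.08 in GFP negative, 9.40 ± 0.10 in unsorted BMP4 and 10.81 ± 0.05 in untreated cells (SD, n = 3 each), and no neighbouring groups overlapped. Cyp26a1 averaged 6.05 ± 0.22, 5.36 ± 0.12, 8.46 ± 0.16 and 5.87 ± 0.15 in the same order of groups. Its GFP positive and untreated arrays overlapped. Rbp4 was detected on all 3 arrays in unsorted BMP4 cells alone, on 1 of 3 in GFP negative cells and on none in GFP positive or untreated cells. Rarb stood out in untreated cells alone, at 7.48 ± 0.12 by probe 2650131. Levels in sorted and unsorted cells share the limit given above, and fewer cells with a transcript and less transcript per cell cannot be told apart in these bulk samples.

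The genes most like each member were taken as those with the smallest root mean square difference between centred log2 profiles over the 12 arrays, among 10597 genes, for the 3 members that varied most. For Cyp26a1 they were H19, an imprinted noncoding RNA gene (0.183), the cytokine signalling inhibitor gene Socs3 (0.342) and the transcription factor gene Cdx2 (0.430). H19 averaged 11.48 in GFP positive, 10.96 in GFP negative, 14.06 in unsorted BMP4 and 11.45 in untreated cells. For Rarb they were Vit (0.175), Efcab2 (0.183) and the transcription factor gene Nfix (0.193), and Nfix averaged 5.06, 5.01, 4.83 and 7.45 in the same groups. In all groups but the untreated one, the means of Nfix and Rarb lay below the level at which detection began. Their likeness there is one of background. Cdx2 was also below that level outside unsorted BMP4 cells, at 5.02, 5.05 and 4.55 in GFP positive, GFP negative and untreated cells. For Stra6 the most similar genes were the transcription factor gene Casz1 (0.118), the angiopoietin receptor gene Tek (0.125) and Pdlim2 (0.140). Casz1 lay below the level at which detection began in both fractions, at 5.62 in GFP positive and 5.38 in GFP negative cells.

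**Figure D4:**
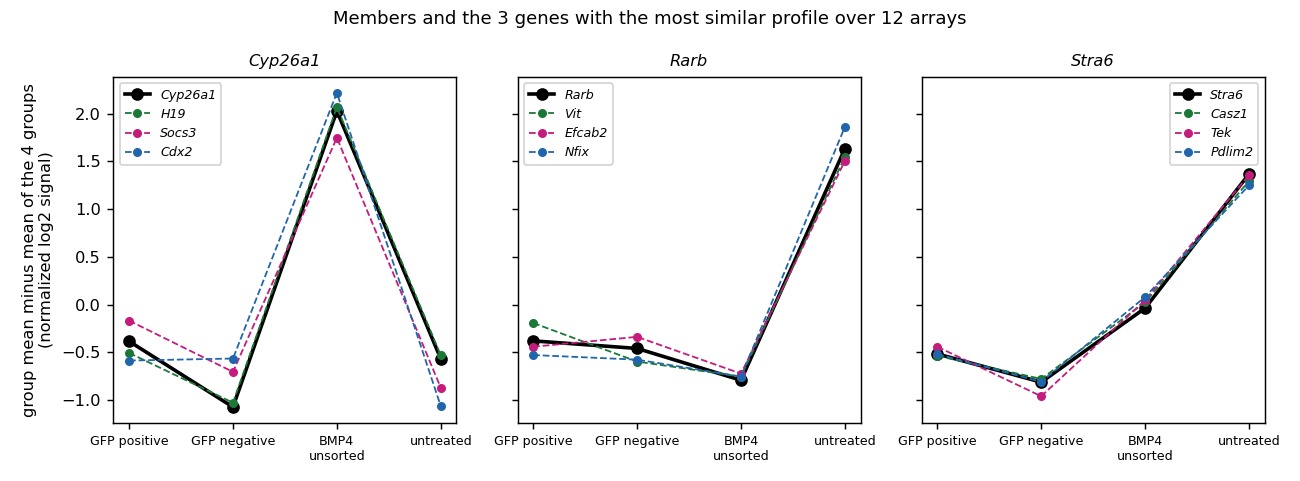
Group means of normalized log2 signal, each minus the mean of its 4 groups (y axis), for Cyp26a1, Rarb and Stra6 (black) and the 3 genes with the most similar profile (dashed), by group (x axis). H19 follows Cyp26a1 in all 4 groups, with a root mean square difference of 0.183 over the 12 arrays.

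Another 88 genes of retinoid handling, in lists by role, were set beside the members with the brightest tested probe standing for each gene. Of these, 84 were on the array and 39 were tested. After BMP4 15 rose and 13 fell, 28 of 39, where 58% of all genes passed, 29.7% higher and 28.2% lower, and the median difference was -0.04 against 0.03 for all genes. The 15 include Foxa1, which no BMP4 or untreated array detected. Between GFP positive and GFP negative cells 2 were higher and 3 lower of 39, where 4.87% of all genes passed, 2.75% higher and 2.12% lower. The share that passed was above that of the array in both comparisons, but the lists were chosen with earlier results of these data known.

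In retinol uptake and binding, 3 of 4 tested genes rose with BMP4 and 1 fell. Lrp2, the megalin receptor that takes up retinol binding protein in kidney, averaged 9.24 ± 0.22 after BMP4 and 6.14 ± 0.17 untreated (SD, n = 3 each), a rise of 3.10 ± 0.12 (SE, adjusted p = 1.05e-10). Its partner gene Cubn rose by 1.03 ± 0.10 (SE, adjusted p = 1.66e-06), and Dgat1, which can esterify retinol, by 0.59 ± 0.09. Ttr, whose product carries retinol binding protein in serum, averaged 12.35 ± 0.12 after BMP4 and 12.57 ± 0.04 untreated (SD, n = 3 each), a difference of -0.22 ± 0.08 (adjusted p = 0.0349). Lrp2 (-0.77 ± 0.12, adjusted p = 0.00186) and Cubn (-0.77 ± 0.10, adjusted p = 0.000744) were lower in GFP positive than in GFP negative cells. The esterifying enzyme gene Lrat was not among the tested genes.

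Of 10 tested dehydrogenase genes, 4 rose and 2 fell with BMP4. Aldh1a1, which like Aldh1a2 oxidizes retinal, averaged 6.04 ± 0.13 after BMP4 and 7.75 ± 0.06 untreated (SD, n = 3 each), a fall by 1.71 ± 0.11 (SE, adjusted p = 2.12e-08). It was at least 1.17-fold higher in GFP positive cells (adjusted p = 0.000396), since no GFP negative array detected it. Retsat, which saturates retinol, rose by 1.07 ± 0.10, the retinal reductase gene Rdh11 by 0.92 ± 0.07 and Rdh10, which oxidizes retinol, by 0.59 ± 0.13 (adjusted p = 0.00201), detected on 3 of 3 BMP4 arrays and 1 of 3 untreated ones. Rdh11 was lower in GFP positive cells by a difference of -0.30 ± 0.07 (adjusted p = 0.0357). In the breakdown list the 1 tested gene, Cyp2s1, rose by 1.61 ± 0.09 (adjusted p = 3.36e-09).

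Of 13 tested receptor and cofactor genes, 2 rose and 6 fell with BMP4, and 0 of the 13 passed between the fractions in limma, 2 of them with an unadjusted p under 0.05. Med1 is among the 6 by its brightest probe (-0.33), while its other tested probe went the other way with BMP4 (0.60). The orphan receptor gene Nr2f1 was lost from detection after BMP4 and was at least 4.33-fold lower (adjusted p = 2.47e-12). It was detected on the 3 untreated arrays alone and entered the test only through them, so its p sets signal against background. The coactivator gene Ncoa1, also not detected on the BMP4 arrays, was at least 3.63-fold lower (adjusted p = 4.20e-08). Kat2b, detected on 2 of 3 BMP4 arrays, fell by 0.92 ± 0.16. Rarg and Rxra were not among the tested genes, and Rxrb, an RXR gene, did not pass (-0.10 ± 0.07, adjusted p = 0.267). Of 12 tested target genes, which include Nr2f1, 5 rose and 5 fell with BMP4. The homeobox gene Meis1 fell by 1.79 ± 0.12 (adjusted p = 3.46e-08), while the transglutaminase gene Tgm2, not detected untreated, was at least 1.85-fold higher (adjusted p = 2.16e-07). Between the fractions Foxa1, a forkhead factor gene, was the 1 target gene that passed, higher in GFP positive cells by 0.75 ± 0.11 (adjusted p = 0.00122). Foxa1 was also among the 5 counted as risen with BMP4. No BMP4 or untreated array detected it, so that difference of 0.36 lies near background.

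**Figure D5:**
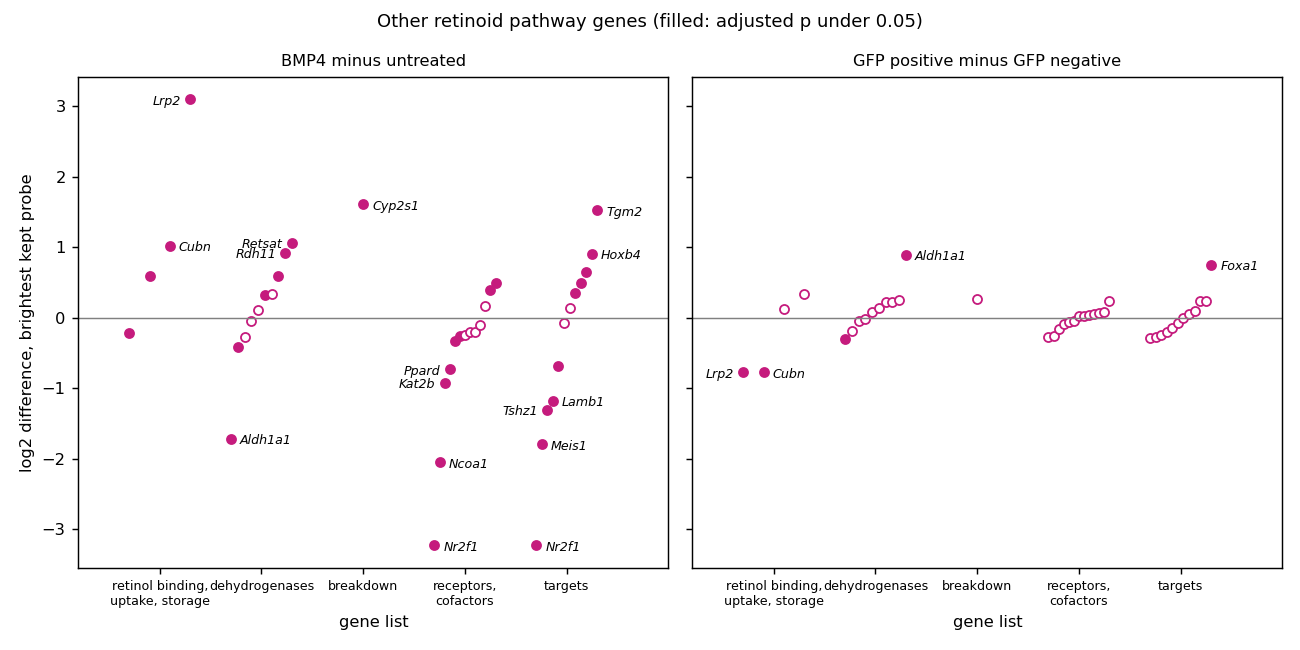
Log2 difference (y axis) of the other tested retinoid pathway genes by list (x axis), for BMP4 minus untreated and for GFP positive minus GFP negative; each point is the brightest tested probe of a gene and filled points passed at an adjusted p under 0.05. Lrp2 is highest at 3.10 and Nr2f1 lowest at -3.23 with BMP4, and 5 genes passed between the fractions.

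Endoderm markers also differed between the groups. The summed linear level of 6 parietal endoderm markers was 66409.6 to 69137.8 on the BMP4 arrays and 90794 to 103482 on the untreated arrays, and 5 of the 6 fell. That of 7 visceral endoderm markers was 8790.4 to 9806.9 on the BMP4 arrays and 6513.9 to 6811.5 on the untreated arrays. Of the 7 genes, 6 rose and 1 fell. A linear sum is set mostly by its brightest genes. Here Ttr, the brightest, fell from 12.57 untreated to 12.35 after BMP4, and Amn rose from 5.22 to 11.25 (log2 means). Of 8 markers of XEN cells and primitive endoderm, 4 fell with BMP4, 2 rose and 2 did not pass. Their sum was 27720.2 to 29406.3 on the BMP4 arrays and 33610 to 34147.2 on the untreated arrays. That sum was also lower in the GFP positive fraction, at 25975.6 to 27796.6 against 29537.9 to 31098.7 in GFP negative cells, and 2 of the 8 genes were called lower there. The visceral sum overlapped between the fractions, at 15743.9 to 16755.8 in GFP positive and 15639.8 to 17077.5 in GFP negative cells. Its genes still differed: Afp and Apoa1 (log2 difference 0.61) were called higher in GFP positive cells, and Amn (-0.49) and Cubn (-0.77) lower. The parietal sum overlapped too, at 50817.2 to 55114.4 in GFP positive and 50777.7 to 54676.6 in GFP negative cells. Of its 6 genes, 1 was called lower in GFP positive cells, Nid1 (-0.53). Both fractions thus lay above unsorted BMP4 cells in the visceral sum and below them in the parietal sum. Of 3 genes of stellate and mesoderm cells, Des and Reln were never detected, while Acta2 was higher in GFP positive cells by 1.00 ± 0.12 (SE, adjusted p = 0.000380). The part of these shifts in the values of the members was not tested.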

How the data were processed

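Per the file headers, the deposited scanner table was exported from BeadStudio 3.4.0 without normalization and gives an intensity, the average over beads, for 45281 probes. Detection is deposited as a fraction and was turned into a p by taking it from 1. In the processed table the authors deposited log2 values. Lumi is named in the submitters' processing notes for it, without its steps. Its identifiers were not linked to probes, so it served only to count calls.

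With limma 3.58.1 (R 4.3.3), intensities were corrected for background by means of the detection p, an offset of 16 was added, and log2 values were taken after quantile normalization. Of all probes, 15448 were kept (detection p under 0.01 on at least 3 arrays) and each was tested on its own in a linear model with 4 group means (8 residual degrees of freedom, lmFit and eBayes). An "at least" fold stands where a group had 0 arrays with detection: each of its arrays then enters at its own value or at the lowest detected level on that array, whichever is higher. Retinoid pathway genes are named by current symbol, found by equality (22864 probes) or 1 synonym (11917). The text names all members, up to 3 genes of each list with the largest called change without overlap in the first 2 comparisons, and Ttr, Lrp2, Lrat, Rdh10, Rarg and Rxra. One further gene of that rule is not reported here. Rxrb, Med1 and Acta2 were added after their values were seen. The members and lists were chosen with earlier results of these data known, and the motif search was chosen after the data were seen. No arrays were identical.

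The settings varied were the background step (left out), the offset (50), the normalization (scale), no or a stricter detection filter, the brightest probe per gene, only the compared groups, array weights, a replicate block, the processed table, and leaving out each array in turn.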

Additional observations from a re-analysis of the deposited data

How the results depend on the processing

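Of 273 results for single member probes under the alternatives, 259 kept their direction and their side of the threshold, 11 lost the call, 1 gained it, and no called value changed sign. The other 2 were Rarb probe 5220097 between GFP positive and GFP negative cells, not called and near 0, which was -0.02 without GFP positive replicate 3 and -0.03 without GFP negative replicate 2, against 0.08 with all arrays. Of the 11, 10 were Stra6 between GFP positive and GFP negative cells and 1 was Rarb probe 5220097 in the sorted fractions. Requiring detection on at least 6 arrays left 2 member probes to test, so the number called was 2 for BMP4 against untreated and 2 for the sorted fractions against unsorted BMP4, because fewer probes entered. Over the whole array, 681 probes were called between GFP positive and GFP negative cells, against 288 with scale normalization and 1044 with array weights, the cause of which was not tested. Leaving out 1 array gave 326 to 512, with 326 without GFP positive replicate 1, 382 without GFP positive replicate 2, 335 without GFP negative replicate 2 and 399 without GFP negative replicate 3. The other counts stayed within 1.5 times: 6244 to 9177 for BMP4 and 7431 to 12455 for the sorted fractions. Scale normalization moved the median of all probes in the sorted fractions to -0.17, against -0.04.

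Deviations from group means of same-numbered arrays correlated at -0.0557 to -0.0186 for BMP4 against untreated. Between the fractions the values were 0.145, 0.118 and -0.00862. There, replicates 1 and 2 of the GFP positive cells correlated best with the GFP negative array of the same number. Same-numbered arrays thus did not deviate together in every pair, and the numbers were not taken as pairs. With the replicate number as a block, 6 member probes were called for BMP4, 2 between the fractions and 6 for the sorted fractions, and 8686, 588 and 10700 probes over the array. The call lost under the block was Stra6 between the fractions (adjusted p = 0.0572). The table names no slides, so a slide block was not run, and the processed table could not give member values. For arrays the limit that depth would set is signal over background: 9 of 15 member probes did not pass the detection filter, and differences fitted for them without it are differences near background.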
